A study of Mus musculus with 12 samples.

Results

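The integrated stress response genes governed by ATF4 were followed as a module of 40 genes in BV2 cells, an immortalized mouse microglial line. The members were the rows of the deposited gene table that carry the symbols of known genes of this pathway, from its kinases and transcription factors to its target enzymes and transporters. All 40 names were found among 21834 protein-coding genes, and 36 of them passed the limit of 0.5 CPM (counts scaled to a common library total) in at least 3 libraries, among 11626 genes that did. The members that did not pass were Vldlr, a lipoprotein receptor with 0 counts in all 12 libraries, the transsulfuration enzymes Cth, with 5 counts over all libraries, and Cbs, with 36, and the cationic amino acid transporter Slc7a3, with 28. A further row named Ddit3 lay inside the Ddit3 locus and held 0 counts.

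RNA was sequenced from 2 BV2 lines, each made with a lentiviral short hairpin vector and selected with puromycin. One carried a control hairpin (shCtrl) and the other a hairpin against Anxa2 (shAnxa2), the gene of annexin A2, a calcium-dependent membrane-binding protein. Each line was left untreated (CTRL) or put through oxygen-glucose deprivation and reoxygenation (OGDR, OGD/R in the text), an in vitro model of ischemia and reperfusion. Each of the 4 groups held 3 libraries. Deprivation lasted 4 h, and the labels put reoxygenation at 12 h where the study's methods state a longer time for BV2 cells. By the study's methods, each is 1 stable line from 1 hairpin. An effect of Anxa2 loss and a difference between the lines therefore cannot be told apart. The study's methods call the libraries of a group biological replicates, each built from technical ones, without saying how the cultures were kept apart, and the p-values measure the spread between these libraries.

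The integrated stress response begins with kinases that phosphorylate the translation factor eIF2, among them PERK (Eif2ak3) on the endoplasmic reticulum and GCN2 (Eif2ak4), which senses uncharged tRNA. Phosphorylated eIF2 blocks its exchange factor eIF2B and slows translation in general, while the Atf4 mRNA is translated better because of its upstream open reading frames. ATF4 then binds composite C/EBP-ATF elements with C/EBP partners and turns on genes for amino acid synthesis, amino acid import and tRNA charging, together with factors such as CHOP (Ddit3) and the feedback regulators Trib3 and Ppp1r15a. Much of this control is exerted on translation and protein, and these libraries measure mRNA abundance alone.

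The composite element was looked for in the promoters as the letters TGATGNAA on both strands, in the 250 bases before each transcript start of the RefSeq promoter table (GRCm38.p6). Of the 40 members, 34 had an entry. The letters occurred before the start of 7 of the 32 tested members with an entry (21.9%), namely Atf3, Jdp2, Nupr1, Chac1, Asns, Pycr1 and Got1, and also before the untested Vldlr. They occurred before 231 of 9345 tested genes with an entry (2.47%), and in 1134 of all 32851 promoters of the table (3.45%). Per promoter, the share was 7 of 41 (17.1%) for the tested members and 244 of 11928 (2.05%) for the genes tested. By role, the letters were found before 3 of 7 transcription factor genes, 1 of 7 stress effectors, 3 of 11 genes of synthesis and one-carbon metabolism, 0 of 5 transporters and 0 of 2 kinases. The windows are printed because they show the element beside genes whose levels are described further on. Each is written on the strand of its gene with the match in capitals, which read TTGCATCA where the match is on the opposite strand. The windows of Nupr1 and Asns are shorter because they overlap an annotated exon.
Atf3: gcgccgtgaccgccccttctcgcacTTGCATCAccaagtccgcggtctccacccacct
Jdp2: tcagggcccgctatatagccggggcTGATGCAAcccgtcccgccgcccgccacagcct
Nupr1: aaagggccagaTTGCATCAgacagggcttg
Chac1: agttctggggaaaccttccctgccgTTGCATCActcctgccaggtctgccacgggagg
Asns: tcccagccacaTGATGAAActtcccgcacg
Pycr1: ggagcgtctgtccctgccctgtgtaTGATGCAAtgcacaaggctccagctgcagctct
Got1: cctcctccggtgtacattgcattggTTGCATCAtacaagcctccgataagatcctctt
On GRCm38.p6 these windows lay at chr1:191183411-191183468 on the minus strand for Atf3, chr12:85599358-85599415 on the plus strand for Jdp2, chr7:126625562-126625591 on the minus strand for Nupr1, chr2:119351024-119351081 on the plus strand for Chac1, chr6:7693214-7693243 on the minus strand for Asns, chr11:120643819-120643876 on the minus strand for Pycr1 and chr19:43524675-43524732 on the minus strand for Got1. The match nearest to a start was that of Asns, at positions −23 to −16, followed by Jdp2 at −33 to −26, and that of Chac1 was the farthest, at −193 to −186. The other matches began at −110 (Atf3 and Nupr1), −103 (Pycr1) and −102 (Got1). A match is a run of letters and says nothing of binding in these cells. The members were chosen as known genes of this pathway, so their higher share is no result of these data. Elements outside the 250 bases, as in introns or exons after the start, were not searched.

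The 12 libraries held 19521877 to 27288843 counts in genes, and the common biological coefficient of variation was 5.355%. Anxa2, the targeted gene, stood at 171.7 ± 6.36 CPM (SD, n = 3) in untreated shCtrl libraries and 40.4 ± 4.86 in untreated shAnxa2 libraries, and at 278.9 ± 24.3 and 19.6 ± 1.26 after OGD/R, so its level followed the line given in the sample names. It is no check of the treatment. A second label field, which lists every OGD/R library as Anxa2 knockdown, contradicts those names and was not used for the groups. All 11 microglial markers were detected, and their summed level was 1744 to 1751 CPM in untreated and 1790 to 1866 in OGD/R shCtrl libraries, against 1464 to 1485 and 1534 to 1542 in the shAnxa2 line. Single markers differed widely. Group means of Aif1, Cx3cr1, Tmem119 and P2ry12 were 1.73 to 10.3 CPM, near those of the oligodendrocyte marker Mbp (3.2 to 5.1). With OGD/R in shCtrl cells, mean Adgre1 went from 189.6 to 396.2 CPM and mean Tmem119 from 4.83 to 1.87. The summed markers of neurons and astrocytes stayed at or below 0.953 CPM and those of oligodendrocytes at or below 6.30 CPM, with Syt1, Snap25, Aqp4 and Mog at 0 throughout. Of the 5239 genes called in both lines at an adjusted p under 0.05, 98.6% moved in opposite directions with OGD/R. An opposite response of the shAnxa2 line would give this pattern. So would an exchange of CTRL and OGDR names among the libraries of 1 line, be it shAnxa2 or shCtrl. These cannot be told apart in these files. This bears on every direction given with OGD/R and on every comparison of the lines within a treatment. An exchange was computed for the shAnxa2 names alone. In bulk RNA, fewer cells of a state and less RNA per cell cannot be told apart either.

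In shCtrl cells, 26 of the 36 tested members were higher after OGD/R and 6 were lower, where a call means a Benjamini-Hochberg adjusted p under 0.05 in the quasi-likelihood test of edgeR, adjusted over all genes tested. Over all genes, 32.4% were called higher and 31% lower, 63.4% in all. The median log2 fold change of the members was 0.53, against 0.00452 for all genes. The rise was carried by the transcription factors, the stress effectors and the enzymes, and 5 of the 6 members that fell were amino acid transporters. At least 2-fold, 11 members were higher and 0 lower, beside 4.65% and 2.08% of all genes. The 3 OGD/R libraries lay entirely above or below the 3 untreated ones for 32 members, and for 68% of all genes.

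In shAnxa2 cells the same treatment was accompanied by the opposite signs. There, 7 members were higher and 25 lower after OGD/R, beside 28.2% and 26.8% of all genes (55% in all), and the median log2 fold change was −0.42. At least 2-fold, 0 were higher and 3 lower, Ddit4, Chac1 and Gdf15, beside 0.809% and 2.74% of all genes. The groups did not overlap for 34 members and for 58.9% of all genes. Of the 30 members called in both lines, 30 moved in opposite directions, a share near that of all genes. The split by direction was uneven in the members, with 24 of 36 (66.7%) higher in shCtrl and lower in shAnxa2 cells and 6 (16.7%) the other way round, where 22% and 22.4% of all genes did so. No test was made of that split, since genes of one pathway are not replicates.

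**Figure D1:**
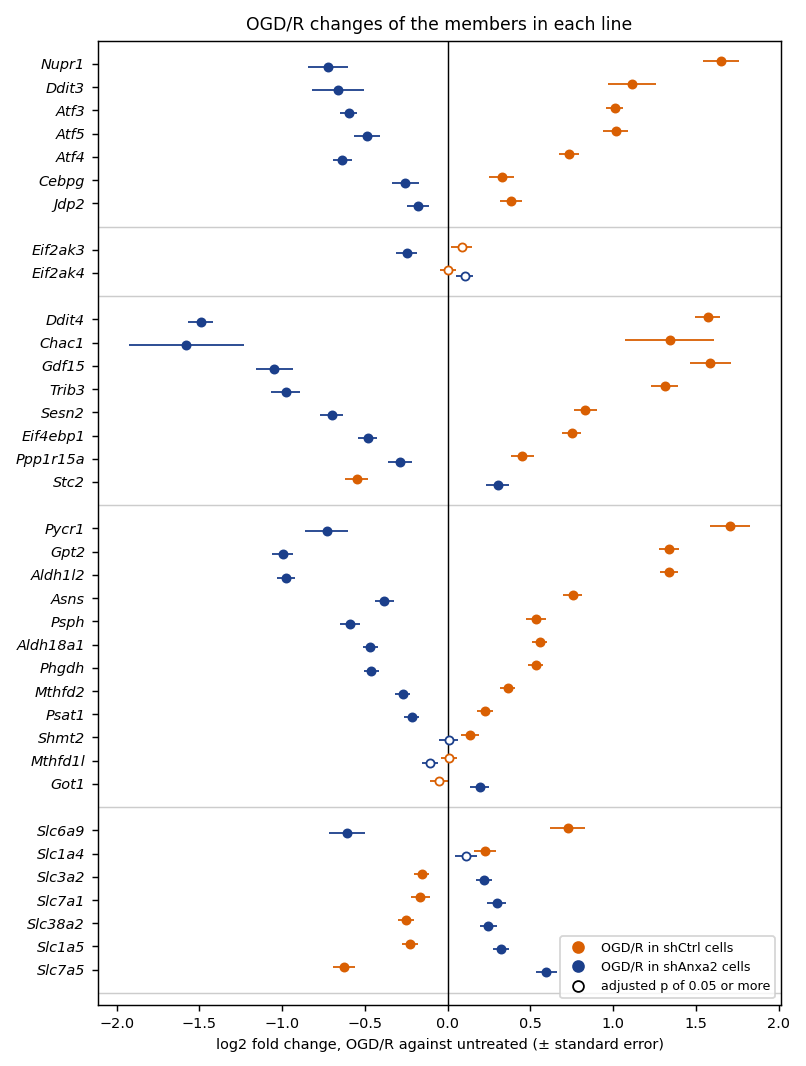
Each row is 1 tested member, grouped by role, with its log2 fold change of OGD/R against untreated on the x axis in shCtrl cells (orange) and in shAnxa2 cells (blue), bars of 1 SE, and open points where the adjusted p was 0.05 or more. For 24 members the orange point lies to the right of 0 and the blue point to the left with both called, and for 5 transporters and Stc2 the sides are exchanged.

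With the names as labelled, the lines also differed before any treatment. Which libraries count as untreated rests on the CTRL and OGDR names, and an exchange of these within a line was not tested. In untreated cells, the shAnxa2 line had 24 members higher and 5 lower than the shCtrl line, with a median log2 fold change of 0.41, beside 29.5% and 29.7% of all genes (59.2% in all). After OGD/R the order was turned, with 7 members higher and 25 lower in shAnxa2 cells and a median of −0.49, beside 33.8% and 34.2% of all genes (67.9% in all). The groups did not overlap for 30 members in the untreated comparison (63.6% of all genes) and for 31 after OGD/R (69.9%). At least 2-fold, 4 members were higher and 0 lower in untreated shAnxa2 cells (3.84% and 1.83% of all genes), namely Ddit4, Trib3, Gdf15 and Aldh1l2, and 0 were higher and 9 lower after OGD/R (3.66% and 6.43%). These comparisons share libraries with the OGD/R comparisons above and are not separate evidence.

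The interaction term, which is the OGD/R change in shAnxa2 cells minus that in shCtrl cells, was called for 32 of 36 members and for 70% of all genes. It was positive in 7 and negative in 25, beside 34.9% and 35.1% of all genes, with a median of −1.01. At a size of at least 1 on the log2 scale it was positive in 1 member, Slc7a5, and negative in 18, beside 8.83% and 12.7% of all genes. In a comparison added after these values were seen, with CTRL and OGDR names exchanged among the shAnxa2 libraries, the interaction was called for 10 of 36 members, beside 14.4% of all genes. It was then positive in 0 and negative in 10 (6.44% and 7.96% of all genes), with a median of −0.12. Exchanging the shCtrl names instead would give the same interactions and calls with every sign turned. The 10 were Atf3, Atf5, Nupr1, Eif4ebp1, Gdf15, Asns, Aldh1l2, Pycr1, Gpt2 and Slc1a4. With the names as labelled, the members without a called interaction were Eif2ak4, Shmt2, Mthfd1l and Slc1a4. Across all genes the middle of the distribution ran from −0.55 at the 25th percentile to 0.50 at the 75th, and the 5th percentile was −1.71, a value passed by Nupr1, Ddit3, Ddit4, Trib3, Chac1, Gdf15, Pycr1, Gpt2 and Aldh1l2.

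**Figure D2:**
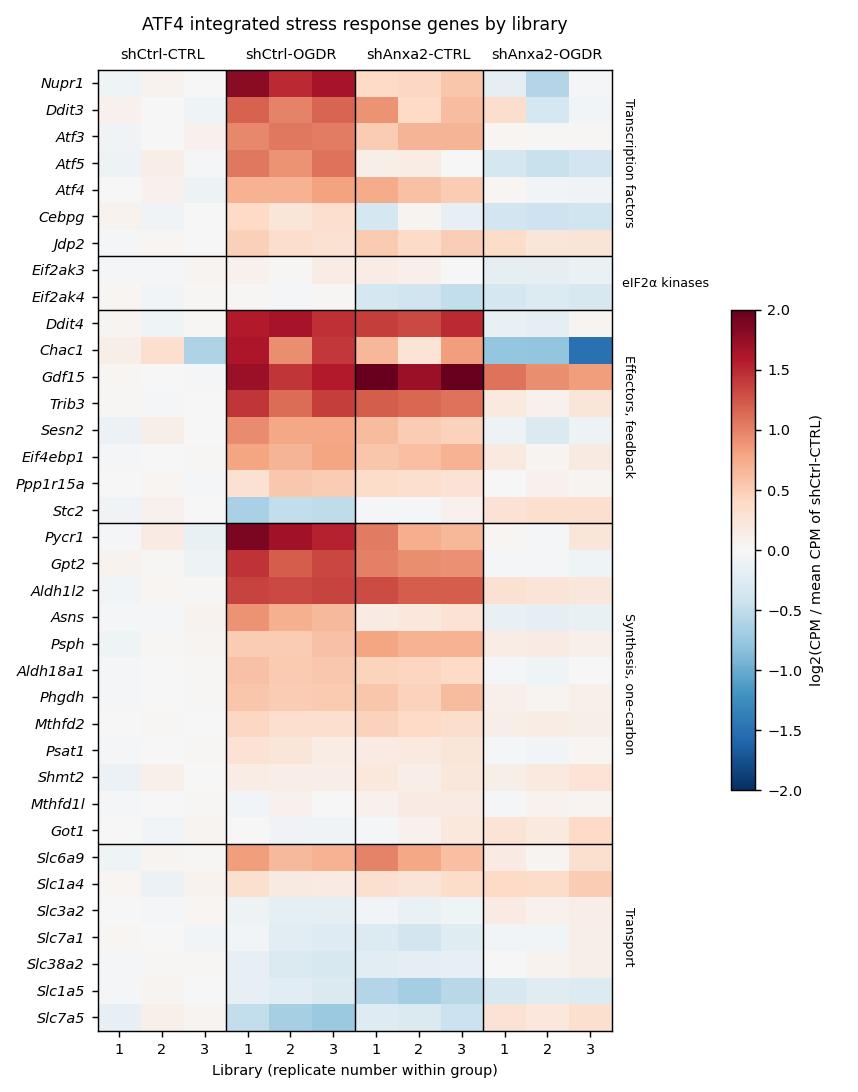
Each row is a tested member, grouped by role, and each column 1 of the 12 libraries, with color giving the log2 of its CPM over the mean CPM of the untreated shCtrl libraries, on a scale whose ends are held for values beyond it. In most rows above the transport block the shCtrl-OGDR and shAnxa2-CTRL libraries are the reddest, and in most transport rows they are blue.

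Atf4 mRNA itself rose with OGD/R in shCtrl cells and fell in shAnxa2 cells. Atf4 stood at 192, 203 and 178 CPM in the untreated and 309.6, 309.7 and 333 CPM in the OGD/R libraries of the shCtrl line, and at 319, 286 and 271 CPM and 197, 184 and 183 CPM in those of the shAnxa2 line. Every OGD/R library of the shCtrl line lay above all untreated ones of that line, and every OGD/R library of the shAnxa2 line below. The untreated shAnxa2 libraries lay close to the shCtrl-OGDR ones. The log2 fold change with OGD/R was 0.73 (SE 0.0593, adjusted p = 1.3e-10) in shCtrl cells and −0.64 (SE 0.0596, adjusted p = 4.19e-09) in shAnxa2 cells by edgeR's quasi-likelihood test, and the interaction was −1.37 (SE 0.0841, adjusted p = 4.93e-13). The deposited table places Atf4 (ENSMUSG00000042406) on the plus strand at chr15:80139385-80141742 of the mm39 build. Its CPM level per kilobase of exon in untreated shCtrl cells, 80.97, was the highest of the 7 transcription factors.

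All 7 transcription factor genes rose with OGD/R in shCtrl cells (against 32.4% of all genes) and all 7 fell in shAnxa2 cells (against 26.8%). Their medians were 1.01 and −0.60 on the log2 scale. Nupr1, a small stress-induced chromatin-associated protein, had the widest interaction among them as labelled and with the shAnxa2 names exchanged. In shCtrl cells Nupr1 measured 9.02, 10.1 and 9.71 CPM untreated and 33.8, 27.0 and 30.0 CPM after OGD/R, and in shAnxa2 cells 12.7, 12.8 and 14.2 CPM untreated and 8.47, 6.40 and 9.41 CPM after OGD/R. The shCtrl-OGDR libraries were the highest of all 12 and the shAnxa2-OGDR libraries overlapped the untreated shCtrl ones. Nupr1 rose by 1.65 (SE 0.108) in shCtrl cells and fell by 0.72 (SE 0.122) in shAnxa2 cells on the log2 scale, and its interaction was −2.37, or −0.93 with those names exchanged.

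Ddit3 encodes CHOP, a C/EBP family factor that links prolonged stress to cell death genes. Ddit3 stood at 5.26, 4.91 and 4.63 CPM in the untreated and 11.2, 9.85 and 11.1 CPM in the OGD/R libraries of the shCtrl line, and at 9.24, 6.50 and 7.59 CPM and 6.28, 3.85 and 4.75 CPM in those of the shAnxa2 line. Its levels were among the lowest of the module, and the OGD/R and untreated libraries did not overlap within either line. The log2 fold changes were 1.12 (SE 0.146) and −0.66 (SE 0.156), with an interaction of −1.78. Ddit3 lies over part of Mars1 in the annotation, and since no strand setting is given, reads of the pair cannot be told apart. Atf3, a stress-induced repressor of the same bZIP class, was measured far above Ddit3 in counts. The 3 untreated shCtrl libraries gave 99.1, 104 and 110.4 CPM for Atf3 and the 3 OGD/R ones 203, 217 and 212 CPM, while the shAnxa2 line gave 149, 167 and 168 CPM untreated and 107, 106 and 106 CPM after OGD/R. The 4 groups of Atf3 were tight, and the shAnxa2-OGDR libraries fell inside the range of the untreated shCtrl ones. It rose by 1.01 and fell by 0.60 in the respective lines, with an interaction of −1.61 (SE 0.0741).

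The other factors moved the same way. Atf5, an ATF4 relative under similar translational control, had log2 fold changes of 1.02 in shCtrl and −0.49 in shAnxa2 cells, and it did not differ between the untreated lines at the threshold (0.09, adjusted p = 0.316 by edgeR). Its reads may include those of the overlapping Il4i1 and Nup62. Cebpg, a dimer partner of ATF4, had 0.33 and −0.26 on the same scale, and Jdp2, a repressor of the AP-1 class, 0.39 and −0.18. The fall of Cebpg in shAnxa2 cells lost its call without 1 library, replicate 2 of the untreated shAnxa2 group (−0.15), and that of Jdp2 without any 1 of 4 libraries (−0.15 to −0.17), namely untreated shAnxa2 replicates 1 and 3 and OGD/R shAnxa2 replicates 2 and 3. Without that same untreated replicate 2, Cebpg was instead called lower in the untreated shAnxa2 line (−0.25). After OGD/R, 6 of the 7 factors were lower in the shAnxa2 line (85.7%, against 34.2% of all genes), from −0.73 for Cebpg to −1.91 for Nupr1. Jdp2 was not called (−0.10).

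**Figure D3:**
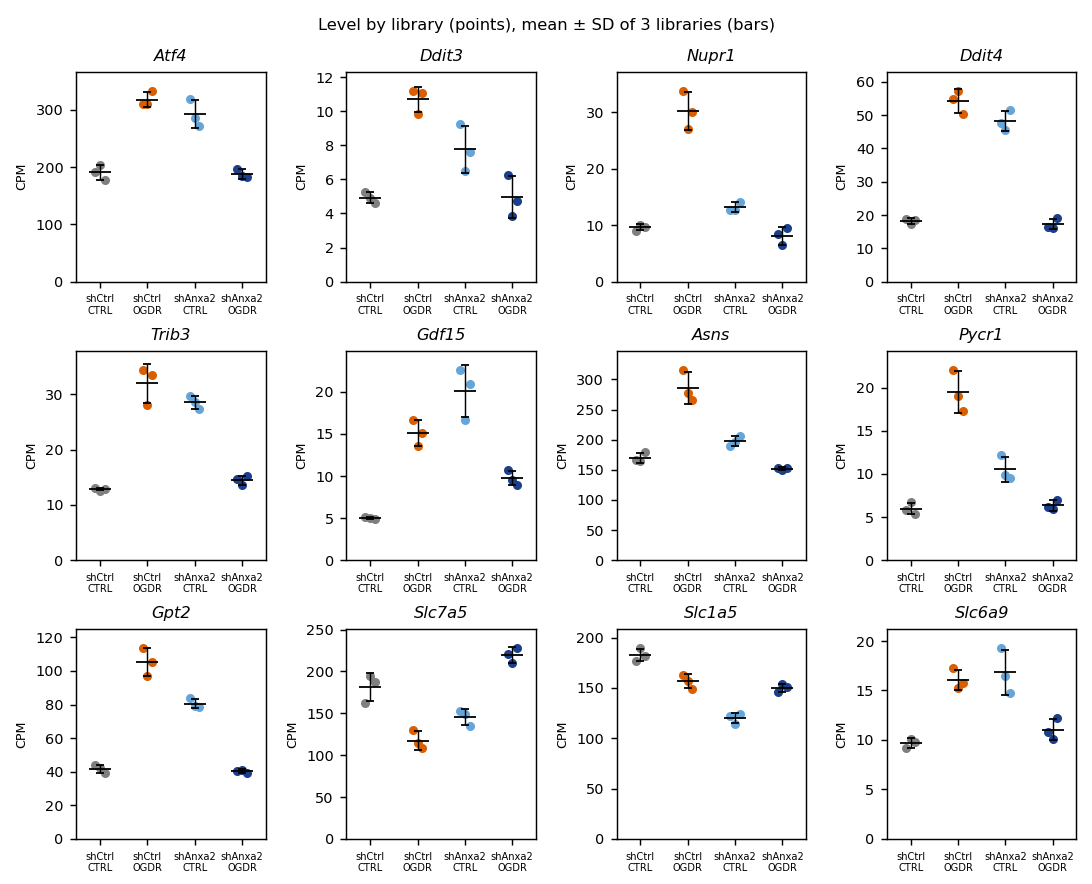
CPM of selected members in each library, with 1 panel per gene, the 4 groups on the x axis, a point for each of 3 libraries, a bar at the group mean and error bars of 1 SD. Ddit4 lies at 50.2 to 57.3 CPM in shCtrl-OGDR and 45.7 to 51.4 in shAnxa2-CTRL libraries, and at 16.1 to 19 in the remaining groups.

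The eIF2 kinase genes showed small changes with OGD/R or none that passed the test. In shCtrl cells Eif2ak3 measured 37.7, 38.1 and 40.1 CPM untreated and 41.0, 39.2 and 42.9 CPM after OGD/R, and in shAnxa2 cells 43.0, 41.5 and 38.6 CPM untreated and 34.1, 34.2 and 35.3 CPM after OGD/R. The shCtrl groups overlapped, and the shAnxa2-OGDR libraries were the lowest 3. Eif2ak3, which encodes PERK, was not called in shCtrl cells (0.08, SE 0.0617) and fell by 0.25 (SE 0.0634) in shAnxa2 cells, with an interaction of −0.33. Eif2ak4, which encodes GCN2, was not called with OGD/R in either line (0.00 and 0.10), and it was the lower in the shAnxa2 line both untreated (−0.42) and after OGD/R (−0.31).

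The list of further components of the initiation step held 15 genes of eIF2, eIF2B, the other kinases, the phosphatase and mitochondrial stress relays, all of which were tested. Among them, 4 were higher (26.7%, against 32.4% of all genes) and 7 lower (46.7%, against 31%) with OGD/R in shCtrl cells, with a median of −0.09. In shAnxa2 cells 4 were higher (26.7%, against 28.2%) and 2 lower (13.3%, against 26.8%). The interaction was positive in 7 (46.7%, against 34.9%) and negative in 3 (20%, against 35.1%). Of the 4 higher in shCtrl cells, Ppp1r15b, a subunit of the eIF2 phosphatase, lost its call of 0.12 without any 1 of 4 shCtrl libraries, untreated replicates 1 and 2 and OGD/R replicates 2 and 3 (0.11 to 0.12). Dele1, a mitochondrial relay, lost its call of 0.15 without untreated shCtrl replicate 1 (0.12) or OGD/R shCtrl replicate 3 (0.11), so the count fell to 2 without either of those. The negative interaction of Ppp1r15b (−0.17) was lost without untreated shAnxa2 replicate 2 or OGD/R shAnxa2 replicate 1 (−0.14 each). Eif2b4, a subunit of eIF2B, had log2 fold changes of −0.52 in shCtrl and 0.57 in shAnxa2 cells, and Eif2b1, another subunit, of −0.51 and 0.45. Eif2s1, which encodes the phosphorylated subunit of eIF2, had −0.37 in shCtrl cells and was not called in shAnxa2 cells (0.04). The β subunit gene Eif2s2 went the other way, with 0.31 and −0.37. Oma1, the protease that starts the mitochondrial branch of the response, rose by 0.39 in shCtrl cells and was not called in shAnxa2 cells (−0.10).

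Of the 8 tested stress effectors and feedback genes, 7 rose in shCtrl cells and fell in shAnxa2 cells (87.5%, against 22% of all genes). Stc2 did the reverse (12.5%, against 22.4%). The list medians were 1.07 in shCtrl and −0.84 in shAnxa2 cells. Ddit4 encodes REDD1, an inhibitor of mTORC1 that is also induced by low oxygen. The 3 untreated shCtrl libraries gave 18.9, 17.3 and 18.6 CPM for Ddit4 and the 3 OGD/R ones 55.0, 57.3 and 50.2 CPM, while the shAnxa2 line gave 47.7, 45.7 and 51.4 CPM untreated and 16.5, 16.1 and 19 CPM after OGD/R. The shCtrl-OGDR and shAnxa2-CTRL libraries lay far above the other 6, with no library between. The log2 fold change was 1.57 (SE 0.0746, adjusted p = 1.05e-14) in shCtrl and −1.49 (SE 0.0774, adjusted p = 2.66e-13) in shAnxa2 cells by edgeR, and the interaction was −3.06 (SE 0.107, adjusted p = 1.84e-17). With the names of the shAnxa2 libraries exchanged, the interaction was −0.08 (adjusted p = 0.678 by edgeR).

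Trib3, a pseudokinase that ATF4 and CHOP induce and that restrains ATF4 in turn, followed Ddit4 closely. Trib3 stood at 13, 12.6 and 13 CPM in the untreated and 34.5, 28.0 and 33.5 CPM in the OGD/R libraries of the shCtrl line, and at 29.7, 28.7 and 27.3 CPM and 14.8, 13.6 and 15.2 CPM in those of the shAnxa2 line. The lowest library of the shCtrl-OGDR and shAnxa2-CTRL groups lay at 27.3 CPM and the highest of the others at 15.2 CPM. Trib3 rose by 1.31 (SE 0.0839) in shCtrl cells and fell by 0.98 (SE 0.0857) in shAnxa2 cells. Gdf15, a secreted cytokine of the TGF-β family used as a marker of mitochondrial and metabolic stress, differed in that untreated shAnxa2 cells held the highest level. In shCtrl cells Gdf15 measured 5.14, 5.06 and 4.89 CPM untreated and 16.6, 13.6 and 15.2 CPM after OGD/R, and in shAnxa2 cells 22.6, 16.7 and 21 CPM untreated and 10.7, 9.58 and 8.97 CPM after OGD/R. All 3 shAnxa2-OGDR libraries remained above the untreated shCtrl ones, although they were the lower group of their line. The log2 fold changes with OGD/R were 1.59 and −1.05, and the difference between the untreated lines was 2.0 (SE 0.119).

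Chac1, an enzyme that degrades glutathione, was the least abundant tested member, and its spread was the widest, with a within-group coefficient of variation of up to 31.4% against a median of 4.805% over members and groups. In raw counts it held 25, 33 and 17 in untreated and 75, 48 and 50 in OGD/R shCtrl libraries, and 31, 24 and 43 in untreated and 11, 14 and 7 in OGD/R shAnxa2 libraries. The groups did not overlap in CPM within either line, and the untreated groups of the lines overlapped. Chac1 had log2 fold changes of 1.34 (SE 0.270) and −1.58 (SE 0.348) with OGD/R. Its untreated difference between lines, 0.62, missed the threshold (adjusted p = 0.075 by edgeR) and passed it without untreated shCtrl replicate 2 (0.84) or untreated shAnxa2 replicate 2 (0.76).

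The remaining effectors were Sesn2, a leucine sensor that also restrains mTORC1, with 0.83 in shCtrl and −0.70 in shAnxa2 cells, Eif4ebp1, a repressor of cap-dependent translation, with 0.75 and −0.48, and Ppp1r15a, which encodes the GADD34 subunit that returns eIF2 to its unphosphorylated form, with 0.45 and −0.29. Stc2, a secreted glycoprotein, fell by 0.55 in shCtrl cells and rose by 0.30 in shAnxa2 cells, and its untreated levels did not differ between lines at the threshold (0.01, SE 0.0681). Ppp1r15a overlaps Tulp2 in the annotation.

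Of the 12 tested genes of amino acid synthesis and one-carbon metabolism, 10 rose with OGD/R in shCtrl cells (83.3%, against 32.4% of all genes). In that line 0 fell (against 31%), for a median of 0.53. In shAnxa2 cells 1 rose (8.33%, against 28.2%) and 9 fell (75%, against 26.8%), with a median of −0.42. With the names as labelled, 11 were higher (91.7%, against 29.5%) and 0 lower (against 29.7%) in the untreated shAnxa2 line. After OGD/R 1 was higher (8.33%, against 33.8%) and 9 lower (75%, against 34.2%). Asns, asparagine synthetase and the classical reporter of the amino acid response, carried the element shown above nearest to its start. The 3 untreated shCtrl libraries gave 166, 164 and 179 CPM for Asns and the 3 OGD/R ones 316, 277 and 265 CPM, while the shAnxa2 line gave 189.8, 197 and 207 CPM untreated and 153, 149 and 153 CPM after OGD/R. The shCtrl-OGDR libraries were the highest, and the untreated shAnxa2 libraries lay only a little above the untreated shCtrl ones. Asns rose by 0.75 (SE 0.0570) in shCtrl cells, fell by 0.38 (SE 0.0577) in shAnxa2 cells, and was higher by 0.22 in the untreated shAnxa2 line.

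The mRNAs of enzymes of proline and alanine synthesis also rose in shCtrl cells and fell in shAnxa2 cells. Pycr1, the last step of proline synthesis in mitochondria, was a low-abundance gene. Pycr1 stood at 5.81, 6.71 and 5.40 CPM in the untreated and 22.1, 19.1 and 17.3 CPM in the OGD/R libraries of the shCtrl line, and at 12.2, 9.91 and 9.49 CPM and 6.12, 5.88 and 7.03 CPM in those of the shAnxa2 line. The shCtrl-OGDR libraries stood well above the other 9. Its log2 fold changes were 1.71 (SE 0.12) in shCtrl cells, the widest rise of any member there, and −0.73 (SE 0.131) in shAnxa2 cells. Aldh18a1, an earlier step of the same pathway, had 0.56 and −0.47. Gpt2, the mitochondrial alanine aminotransferase, was higher in abundance. In shCtrl cells Gpt2 measured 43.8, 42.3 and 39.0 CPM untreated and 114, 96.8 and 105 CPM after OGD/R, and in shAnxa2 cells 83.7, 79.3 and 78.7 CPM untreated and 40.7, 41.2 and 39.1 CPM after OGD/R. Untreated shCtrl and shAnxa2-OGDR libraries shared a range, and the other groups lay above it. The changes were 1.34 (SE 0.0607) and −1.0 (SE 0.0623), and the interaction was −2.33.

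The mRNAs of the serine pathway moved as a group, by less than those of Pycr1 and Gpt2. Phgdh, the first step, had log2 fold changes of 0.53 in shCtrl and −0.46 in shAnxa2 cells. Psat1, the next step, had 0.23 and −0.22, and Psph, the last, 0.53 and −0.59, where the gene overlaps Cct6a. Phgdh and Psat1 were among the most abundant members, and per kilobase of exon Phgdh came first of the 36 in untreated shCtrl cells, at 206.9 CPM, and Psat1 came after Got1, at 139.4, with Pycr1 at 1.52 and Chac1 at 0.586 at the low end. Got1, the cytosolic aspartate aminotransferase, was second at 182.5. Got1 was the exception among the enzymes in shAnxa2 cells, where it rose by 0.19, and this call was lost without untreated shAnxa2 replicate 1 (0.14) or OGD/R shAnxa2 replicate 3 (0.13). It was not called in shCtrl cells (−0.05). Its interaction of 0.24 was lost without that same replicate 3 or under upper quartile scaling (0.17 each). Its untreated difference between lines, not called at 0.10, was called without that same replicate 1 (0.15) or under that scaling (0.14).

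The mitochondrial folate enzymes, which pass one-carbon units from serine to formate or carbon dioxide, ranged widely in the size of their changes. Aldh1l2, which oxidizes the one-carbon unit to carbon dioxide, changed most. The 3 untreated shCtrl libraries gave 28.4, 30.3 and 30.1 CPM for Aldh1l2 and the 3 OGD/R ones 75.7, 73.9 and 75.5 CPM, while the shAnxa2 line gave 73.3, 68.6 and 68.5 CPM untreated and 36.6, 35.5 and 34.8 CPM after OGD/R. All shCtrl-OGDR and shAnxa2-CTRL libraries lay far above the other 6. Aldh1l2 rose by 1.34 (SE 0.0555) in shCtrl cells and fell by 0.98 (SE 0.0558) in shAnxa2 cells, with an interaction of −2.32. Mthfd2, the dehydrogenase and cyclohydrolase, had 0.36 and −0.27, a smaller pair of changes. Shmt2, which takes the one-carbon unit from serine, had 0.14 (adjusted p = 0.032 by edgeR) and 0.01. The call in shCtrl cells was lost without untreated shCtrl replicate 1 (0.08) or 3, or without any of the 3 shCtrl-OGDR libraries (0.14 to 0.15 over these others). The interaction of Shmt2, not called at −0.13, was called without untreated shCtrl replicate 2 (−0.20) or OGD/R shAnxa2 replicate 3 (−0.19). It was also called under upper quartile scaling (−0.20). Mthfd1l, the formate-producing ligase, was not called with OGD/R in shCtrl (0.01) or shAnxa2 cells (−0.11). In shAnxa2 cells it was called lower without OGD/R shCtrl replicate 1 (−0.11), untreated shAnxa2 replicate 1 (−0.13) or OGD/R shAnxa2 replicate 3 (−0.13). It was also called lower there under RLE and upper quartile scaling, with no filter, with a filter of 1 CPM and with a replicate block (−0.11 to −0.15). DESeq2, limma-voom and the fit of only the 2 groups did not call it. Mthfd1l was called higher in untreated shAnxa2 cells (0.14), a call lost without untreated shCtrl replicate 1 (0.11) or untreated shAnxa2 replicate 2 (0.13). Shmt2 overlaps Ndufa4l2 and Aldh1l2 overlaps D10Wsu102e in the annotation.

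The cytosolic folate cycle, which is not among the listed targets, was measured for contrast. With OGD/R, the 3 genes described here fell in the shCtrl line (median −0.57) and rose in the shAnxa2 line (median 0.46), beside 31% and 28.2% of all genes called in those directions. In shCtrl cells Shmt1, the cytosolic counterpart of Shmt2, measured 144, 139 and 146 CPM untreated and 80.5, 84.1 and 79.5 CPM after OGD/R, and in shAnxa2 cells 97.4, 90.3 and 105 CPM untreated and 141, 147 and 147 CPM after OGD/R. Its treated and untreated libraries did not overlap in either line. The interactions were 1.38 for Shmt1, 1.03 for Mthfd1, the cytosolic trifunctional enzyme, and 0.65 for Tyms, thymidylate synthase.

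**Figure D4:**
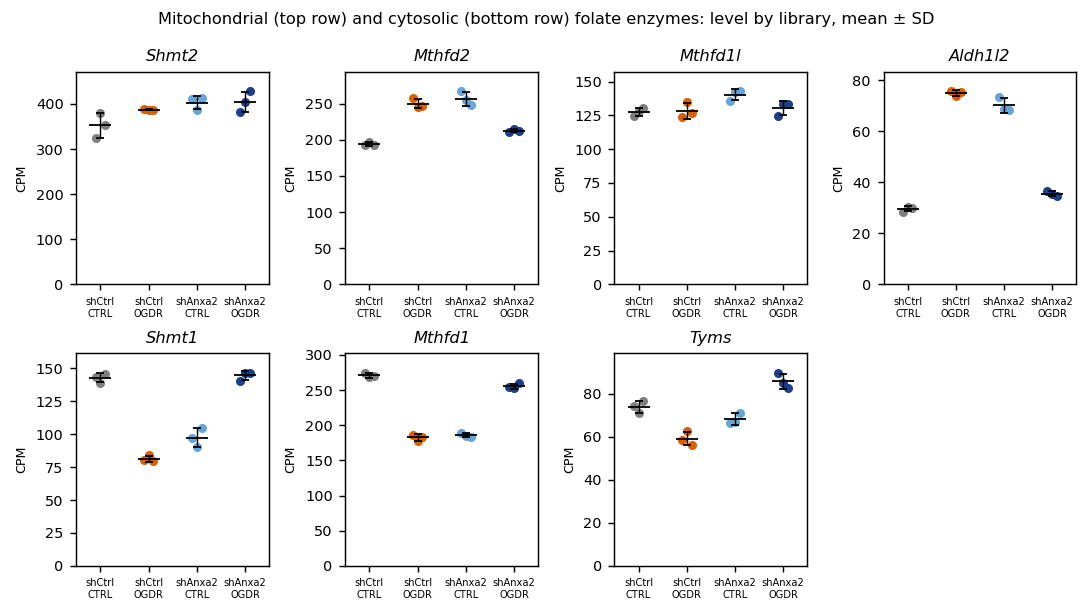
CPM of mitochondrial and cytosolic folate enzymes in each library, with 1 panel per gene, the 4 groups on the x axis, 3 points per group, a bar at the group mean and error bars of 1 SD. Aldh1l2 and Mthfd2 are high in shCtrl-OGDR and shAnxa2-CTRL libraries, the cytosolic genes are low there, and Shmt2 and Mthfd1l differ little.

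Most of the amino acid transporters moved against Atf4. Of 7 tested, 2 rose (28.6%, against 32.4% of all genes) and 5 fell (71.4%, against 31%) with OGD/R in shCtrl cells (median −0.17). In shAnxa2 cells 5 rose (71.4%, against 28.2%) and 1 fell (14.3%, against 26.8%), with a median of 0.25. The median change regardless of sign was 0.23 in shCtrl and 0.30 in shAnxa2 cells, against 0.30 and 0.24 for all genes. The interaction was positive in 5 (71.4%, against 34.9%) and negative in 1 (14.3%, against 35.1%). Slc7a5, the light chain of the large neutral amino acid transporter LAT1, showed this most. Slc7a5 stood at 163, 194 and 188 CPM in the untreated and 129.6, 114 and 108 CPM in the OGD/R libraries of the shCtrl line, and at 152, 149 and 134 CPM and 221, 209.6 and 228 CPM in those of the shAnxa2 line. The lowest 3 libraries were the shCtrl-OGDR ones and the highest 3 the shAnxa2-OGDR ones. Slc7a5 fell by 0.63 (SE 0.0665) in shCtrl cells and rose by 0.60 (SE 0.0663) in shAnxa2 cells, with an interaction of 1.22 (SE 0.0939, adjusted p = 2.91e-11) by edgeR. Its reads may include those of the overlapping Galnt2l. Slc3a2, the heavy chain that pairs with Slc7a5, moved the same way by less, with −0.16 and 0.22.

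With the names as labelled, Slc1a5, a glutamine transporter, differed between the lines before treatment. In shCtrl cells Slc1a5 measured 177, 189 and 182 CPM untreated and 163, 157 and 149 CPM after OGD/R, and in shAnxa2 cells 122, 114 and 124 CPM untreated and 146, 154 and 151 CPM after OGD/R. Untreated shAnxa2 libraries were the lowest, and the lines overlapped after OGD/R. The untreated difference was −0.61 (SE 0.0487), that after OGD/R was −0.06 and not called, and the OGD/R changes were −0.22 and 0.32. Slc38a2, the neutral transporter induced by amino acid lack, had −0.25 and 0.25, and Slc7a1, the cationic transporter CAT1, −0.17 and 0.30. The fall of Slc7a1 in shCtrl cells lost its call without untreated shCtrl replicate 1 (−0.15), OGD/R shCtrl replicate 2 (−0.15) or OGD/R shCtrl replicate 3 (−0.12). Its higher level in shAnxa2 cells after OGD/R (0.17) was lost without OGD/R shCtrl replicate 2 (0.15) or 3 (0.13) or OGD/R shAnxa2 replicate 3 (0.11).

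The glycine transporter Slc6a9 was the transporter that followed the enzymes. The 3 untreated shCtrl libraries gave 9.19, 10.1 and 9.81 CPM for Slc6a9 and the 3 OGD/R ones 17.2, 15.2 and 15.7 CPM, while the shAnxa2 line gave 19.3, 16.5 and 14.7 CPM untreated and 10.8, 10.1 and 12.2 CPM after OGD/R. The OGD/R and untreated libraries did not overlap in either line. Its log2 fold changes were 0.73 (SE 0.105) and −0.61 (SE 0.106), and its interaction was −1.33. Slc6a9 overlaps B4galt2 and Ccdc24. Slc1a4, a transporter of alanine, serine and cysteine, rose by 0.23 in shCtrl cells and was not called in shAnxa2 cells (0.11). Its higher level in shAnxa2 cells after OGD/R (0.20) was lost without OGD/R shCtrl replicate 2 (0.18) or 3 (0.17) or OGD/R shAnxa2 replicate 3 (0.15).

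A list of 18 further genes that ATF4 is known to induce held 15 that were tested, since Fgf21, Adm2 and Tnfrsf10b did not pass the limit on low counts. With OGD/R in shCtrl cells, 9 were higher and 0 lower, 60% called in all, near the 63.4% of all genes (32.4% higher and 31% lower). In shAnxa2 cells 1 was higher and 7 lower, 53.3% called in all, near the 55% of all genes (28.2% and 26.8%). The interaction was positive in 1 and negative in 9, beside 34.9% and 35.1% of all genes, with a median of −0.34. The single higher gene was Xpot, the tRNA exporter (0.11, adjusted p = 0.048 by edgeR). Its call was lost without any 1 of 11 libraries, all but replicate 3 of the untreated shAnxa2 group (values 0.10 to 0.13). RLE (0.11) and upper quartile scaling (0.07) also lost it. So did no filter (0.08), a filter of 1 CPM (0.11) and the fit of only the 2 groups (0.11). The interaction of Xpot, 0.18, was lost without untreated or OGD/R shCtrl replicate 3 (0.16 each), with no filter (0.16) and under upper quartile scaling (0.11). Of the 7 lower genes, Herpud1 lost its call without untreated shAnxa2 replicate 1 or 3 or OGD/R shAnxa2 replicate 2 or 3 (−0.10 to −0.14). Leaving out OGD/R shCtrl replicate 2 did the same (−0.13), as did untreated shAnxa2 replicate 2 for Nars (−0.12). The cystine transporter gene Slc7a11 stood at 16.8, 15.5 and 13.3 CPM in untreated and 44.4, 36.9 and 39.7 in OGD/R shCtrl libraries, and at 59.0, 52.4 and 47.1 CPM and 24.3, 20.9 and 17.5 CPM in the shAnxa2 line. Pck2, the mitochondrial enzyme that makes phosphoenolpyruvate, stood at 76.5, 74.7 and 74.3 CPM untreated and 264, 226 and 208 CPM after OGD/R in the shCtrl line, and at 147, 145 and 149 CPM and 77.6, 70.2 and 82.3 CPM in the shAnxa2 line. The treated and untreated libraries of Slc7a11 and Pck2 did not overlap in either line. Their interactions were −2.75 (SE 0.147) and −2.57 (SE 0.0945). The 11 aminoacyl-tRNA synthetase genes of the list, which charge tRNA, were also counted apart. Of these, 6 were higher (54.5%, against 32.4% of all genes) and 0 lower (against 31%) in shCtrl cells. In shAnxa2 cells 0 were higher (against 28.2%) and 4 lower (36.4%, against 26.8%). Cars, the cysteinyl-tRNA synthetase, had log2 fold changes of 0.55 in shCtrl and −0.43 in shAnxa2 cells.

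**Figure D5:**
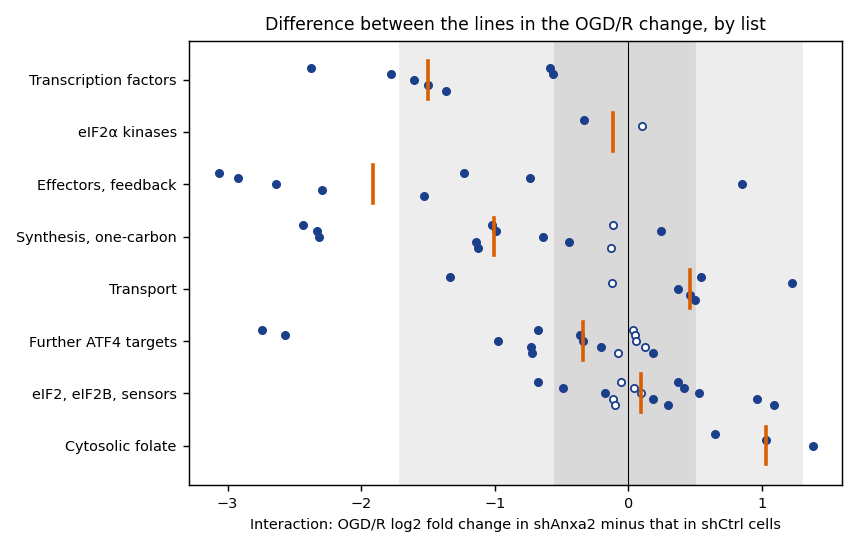
Interaction on the log2 scale (x axis), the OGD/R change in shAnxa2 minus that in shCtrl cells, with a row per list, a point per tested gene (open where not called), an orange bar at the list's median, and shading from the 25th to the 75th percentile of all genes (dark) and from the 5th to the 95th (light, −1.71 to 1.30). The medians are −1.50 for transcription factors, −1.91 for stress effectors, −1.01 for synthesis, 0.46 for transport and 1.03 for the cytosolic folate cycle.

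The order of the 4 group means gave another view of the members. In 11 of 36 (30.6%) the order from high to low was shCtrl-OGDR, shAnxa2-CTRL, shCtrl-CTRL and shAnxa2-OGDR, an order held by 12.1% of all genes, and Atf4, Ddit4, Asns and Gpt2 were among them. In a further 7 (19.4%, against 8.3% of all genes), among them Ddit3, Trib3, Pycr1 and Aldh1l2, the last 2 groups changed places. In 6 (16.7%, against 7.34%), among them Gdf15, Phgdh, Psph and Slc6a9, the order was shAnxa2-CTRL, shCtrl-OGDR, shAnxa2-OGDR and shCtrl-CTRL. Slc7a5, Slc3a2 and Slc38a2 held the exact reverse of the first order, as did 14.2% of all genes. Neighbours in these orders often lay within the spread of the libraries, for example the untreated shCtrl and OGD/R shAnxa2 levels of Atf4 and Gpt2.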

How the data were processed

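RNA of 12 BV2 libraries was sequenced from libraries made with a NEBNext Ultra RNA kit. The submitters' processing notes name HISAT2 2.0.4 and the mm39 build. The study's RNA-seq methods, which open with hippocampal tissue, name Tophat 2 and HTSeq. Whether HTSeq also counted these libraries, and the strand setting, are not given in the sources used here. The authors deposited 1 table with raw read counts per protein-coding gene and 12 columns of normalized values, which were not used. Of the 21834 genes, 14 had no name and kept their identifiers. Groups came from the sample names. The count columns of the control are headed shCTL when untreated and shCTL1 after OGD/R. They were taken as 1 line because the sample names call both shCtrl.

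Counts were fitted with edgeR 4.0.16 (TMM scaling, quasi-likelihood F test, 4 group means, all 12 libraries), for genes that reached 0.5 CPM in 3 or more libraries. Genes were called at a Benjamini-Hochberg adjusted p under 0.05 over 11626 genes. Scripts were tested on simulated counts. Alternatives were other scalings and filters, DESeq2 1.42.0, limma 3.58.1, a replicate block, fits of 2 groups, leaving out each library and, chosen after seeing the data, an exchange of CTRL and OGDR names among the shAnxa2 libraries. CPM per kilobase used GENCODE M21 exon lengths. With no strand setting, reads of overlapping genes cannot be told apart. Counts cover 19521877 to 27288843 reads per library.

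The members and lists were chosen with earlier results of these data known. Values in every library are given for Atf4, Ddit3, Trib3 and Asns and, in each role, for the 3 members with the largest called interaction. Genes named from the other lists were chosen after their values were seen. One gene of the other lists is not reported here.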

Additional observations from a re-analysis of the deposited data

Results flagged for a closer look

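With the names as labelled, the change with OGD/R differed between the shAnxa2 and shCtrl lines for 32 of the 36 tested members, by the interaction term of edgeR at an adjusted p under 0.05, a call that 70% of all genes also had. The values are the log2 fold change in shAnxa2 cells minus that in shCtrl cells. Among the transcription factors the difference was −2.37 in Nupr1, −1.78 in Ddit3, −1.61 in Atf3, −1.50 in Atf5, −1.37 in Atf4, −0.58 in Cebpg and −0.57 in Jdp2. Of the kinases, Eif2ak3 had −0.33. Among the effectors it was −3.06 in Ddit4, −2.92 in Chac1, −2.64 in Gdf15, −2.29 in Trib3, −1.53 in Sesn2, −1.23 in Eif4ebp1, −0.74 in Ppp1r15a and 0.85 in Stc2. The enzymes had −2.44 in Pycr1, −2.33 in Gpt2, −2.32 in Aldh1l2, −1.14 in Asns, −1.12 in Psph, −1.02 in Aldh18a1, −0.99 in Phgdh, −0.64 in Mthfd2, −0.44 in Psat1 and 0.24 in Got1. The transporters had −1.33 in Slc6a9, 1.22 in Slc7a5, 0.55 in Slc1a5, 0.50 in Slc38a2, 0.46 in Slc7a1 and 0.38 in Slc3a2. Whether the CTRL and OGDR names were exchanged in the shCtrl or the shAnxa2 line was not tested. An exchange among the shAnxa2 libraries would turn the sign of the shAnxa2 changes behind every one of these values. So exchanged, the difference was called for 10 of the 36 members and 14.4% of all genes by edgeR, and it was below 1 in size on the log2 scale in all 36. The shAnxa2 and shCtrl changes would then be 0.64 and 0.73 in Atf4, 1.49 and 1.57 in Ddit4, and −0.60 and −0.63 in Slc7a5, with none of these 3 differences called.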

How the results depend on the processing

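The counts of members called in the 5 comparisons stayed within 1.5 times their values under RLE and upper quartile scaling, with no filter and with a filter of 1 CPM, with DESeq2 and limma-voom, and in fits of only the groups compared. With a p under 0.05 before adjustment together with a change of 1 or more on the log2 scale, 11 members were higher and 0 lower with OGD/R in shCtrl cells, 0 higher and 3 lower in shAnxa2 cells, 4 higher and 0 lower in untreated shAnxa2 against shCtrl cells, 0 higher and 9 lower after OGD/R, and the interaction was positive in 1 and negative in 18, since that limit removes the smaller changes. When 1 library was left out, the members higher and lower ranged over 25 to 26 and 5 to 6 for OGD/R in the shCtrl line, 6 to 7 and 24 to 26 in the shAnxa2 line, 23 to 25 and 5 to 6 between untreated lines, 5 to 7 and 25 to 25 after OGD/R, and 6 to 7 and 25 to 26 for the interaction.

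Apart from the exchange of names given last, of 3564 recomputed member values, 0 changed sign while called, 25 lost a call and 17 gained one. Upper quartile scaling lost 1 call, the interaction of Got1 (0.17), and gained 4. These were the interactions of Shmt2 (−0.20) and Mthfd1l (−0.18), Mthfd1l with OGD/R in shAnxa2 cells (−0.15) and Got1 between untreated lines (0.14). Of 3267 values of the other pathway genes, 0 changed sign while called, 69 lost a call and 24 gained one. The share of higher calls among all called genes moved by less than 10 percentage points under every scaling. Genes of low counts, Chac1 above all, have the widest errors.

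The replicate numbers showed no clear pairing of the libraries, though 3 libraries a group cannot exclude one. Over 18 pairs with the same number, the correlation of deviations from the group means ran from −0.0513 to 0.135, with a median of 0.00204 against 0.000886 for different numbers, and 6 of 12 libraries correlated best with their own number. With the replicate block, the members higher and lower were 26 and 6 for OGD/R in the shCtrl line, 7 and 26 in the shAnxa2 line, 24 and 5 between untreated lines, 7 and 25 after OGD/R, and 7 and 25 for the interaction. The block changed 1 call, that of Mthfd1l with OGD/R in shAnxa2 cells (−0.11, adjusted p = 0.0487 by edgeR).

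With the CTRL and OGDR names of the shAnxa2 libraries exchanged, a setting chosen after seeing the data and applied to the interaction alone, 0 members were positive and 10 negative. Of the members called as labelled, 16 kept their direction and lost the call, and 7 changed sign without being called: Eif2ak3 (0.16), Chac1 (0.24), Psph (0.055), Got1 (−0.14), Slc3a2 (−0.062), Slc7a1 (−0.13) and Slc1a5 (−0.10). Slc1a4 gained a call (−0.34). The cause of these changes is the setting itself, which turns the sign of the shAnxa2 change.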
